A study of Mus musculus with 10 samples.

Results

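DEAD and DEAH box proteins are helicases that use ATP to unwind or remodel RNA, and their names come from 1-letter codes of a conserved motif. They act at nearly every step of an RNA's life, from splicing and ribosome assembly to export, translation, decay and the sensing of foreign RNA. Genes were taken by name, as those called Ddx or Dhx with a number, with a mean RPKM (read density scaled for gene length and library size) of at least 1 over the 2 wild-type (WT) inputs. Of 54 such names in the window files, Ddx4 and Ddx6 were left out by name, and Ddx60 (mean RPKM 0.0184) and Dhx58 (0.388) fell under the minimum. The remaining 50 genes, 35 named Ddx and 15 named Dhx, were studied among 30419 genes in all, of which 11306 reached the same RPKM. The least abundant genes just inside the minimum were Ddx25 at 1.80, Dhx34 at 2.29 and Ddx26b at 2.32. The name covers 2 genes that RefSeq now calls otherwise: Ddx26b is listed as Ints6l, related to a subunit of the Integrator complex, and Ddx39 as Ddx39a.

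N6-methyladenosine (m6A) is a methyl mark on adenosines inside messenger RNA, placed for the most part by a complex whose catalytic subunit is Mettl3. It lies mainly near stop codons, in 3′ untranslated regions and in long internal exons, and is read by proteins that alter the decay and translation of the transcript. The study asked what is methylated in J1 mouse embryonic stem cells, a male line grown here without feeder cells, and what happens when Mettl3 is knocked out (KO). Its 10 libraries form 5 pairs, each of fragmented RNA before (input) and after (IP) precipitation with an m6A antibody. Of these pairs, 2 are WT for Mettl3, 2 are Mettl3 KO, and 1 earlier pair, called the first pair here, carries no genotype label. How the KO was made, how many clones were used and whether replicates are separate cultures is not given in the sources used here, so the p-values rest on the scatter among these libraries alone, which may be technical.

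Total coverage over exon windows lay between 10122554 and 14060517.7 scaled units in the inputs and between 13248369.1 and 17030187.4 in the IPs. Mettl3 itself was still covered in the KO inputs, at 3.14 and 3.38 against 4.79 and 4.67 in WT (log2 difference -0.43, limma adjusted p 0.00259). All 8 embryonic stem cell markers were covered above 1 in WT, and their summed coverage was lower in the KO inputs (2126 and 1994) than in the WT inputs (2681 and 2759); the part of this in the helicase differences was not tested. Of the listed markers for other cells, 1 of 6 fibroblast, 2 of 4 neural, 1 of 3 trophectoderm, 0 of 4 mesoderm and 0 of 4 endoderm genes exceeded 1.

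Helicase transcripts were abundant in these cells. Their median RPKM in WT was 15.3, against 6.598 over all genes that reached the minimum. Of the 50 genes, 32 had an RPKM of at least 10, 9 of at least 50 and 2 of at least 100. The 2 were Ddx5 (154.8), a cofactor of splicing and transcription, and Ddx3x (114.2), which promotes translation initiation and is X-linked. Its Y-linked copy Ddx3y stood at 14.4. RPKM is a level per length, so these values can be set side by side between genes, although reads of the near copies Ddx3x and Ddx3y, Ddx19a and Ddx19b, Ddx39 and Ddx39b, and Ddx5 and Ddx17 may be shared between them.

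**Figure D1:**
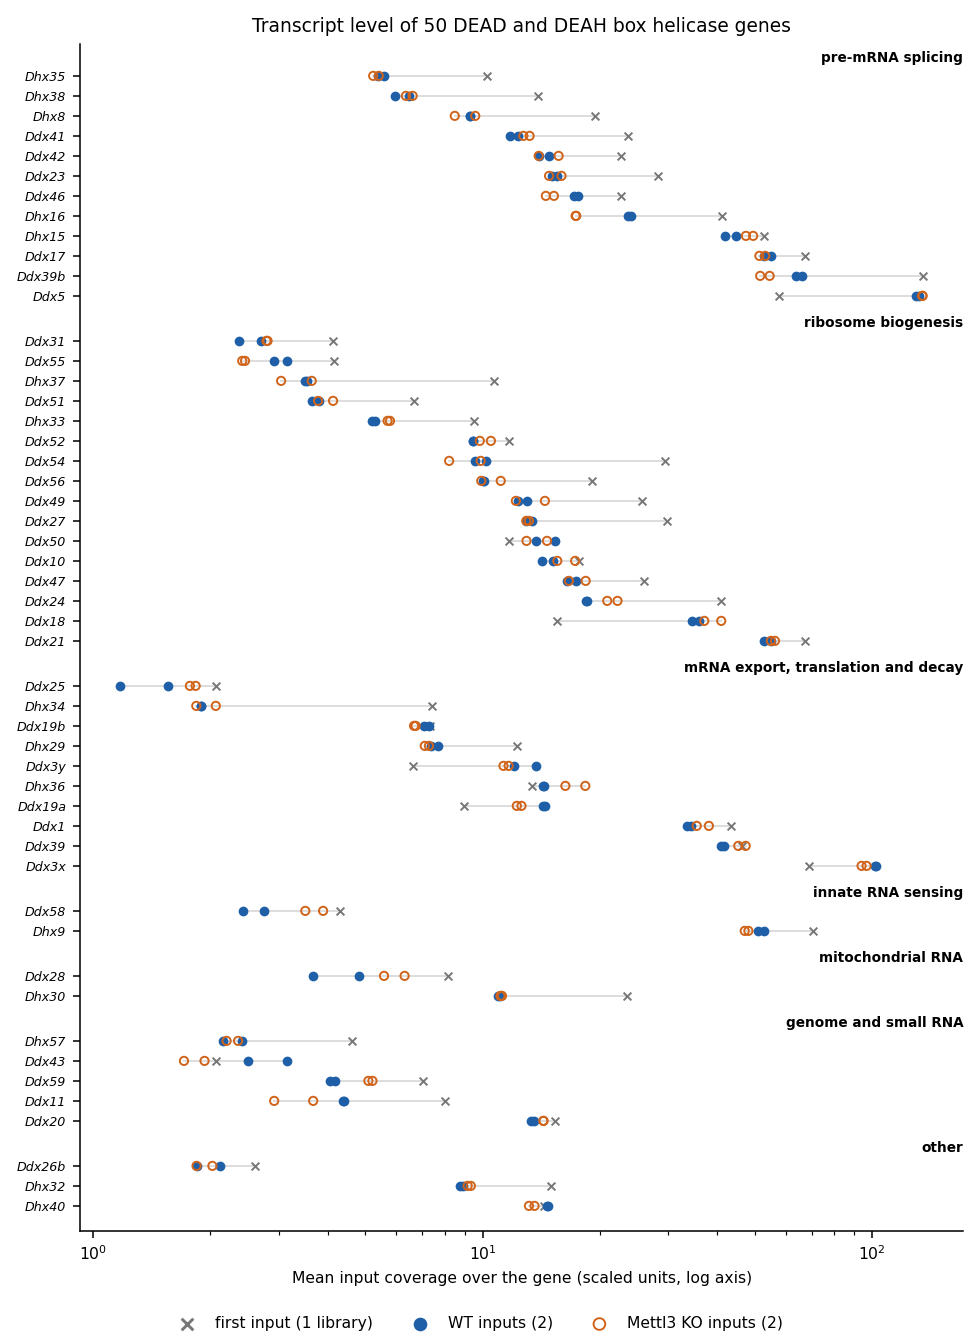
Mean input coverage of the 50 helicase genes in scaled units on a log axis, grouped by role, with 1 point per library: crosses for the first input, filled points for the 2 WT inputs and open points for the 2 KO inputs. WT means run from 1.36 for Ddx25 to 130.9 for Ddx5, and for 41 of the 50 genes the cross lies to the right of both WT points.

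In the KO inputs 5 helicase transcripts rose and 7 fell, by at most 0.44 on the log2 scale, and 38 did not pass the test. Levels were compared as log2(mean coverage + 1), which understates changes of low genes, with limma over 11211 genes and Benjamini-Hochberg adjusted p under 0.05. Over all genes tested 26.6% passed, 13.0% higher and 13.6% lower, so the helicase count of 12 in 50 lay near that background. The median change was 0.033 among the helicases and -0.0048 over all genes. The KO values lay above both WT values in 19 helicase genes (31.7% of all genes tested), below both in 13 (34.0%), and overlapped in 18. Changes of the 38 genes that did not pass ran from -0.15 to 0.25, and the 95% intervals of the 50 genes had a median reach of 0.15 to either side. In such bulk libraries, fewer cells of a type and less RNA per cell cannot be told apart.

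Among the 12 helicases of pre-mRNA splicing, 3 fell, none rose and 9 did not pass. Dhx16, which remodels the spliceosome before the first step of splicing, had a coverage of 24.1 and 23.6 in WT against 17.4 and 17.3 in KO. Both KO libraries lay well below both WT libraries, and the log2 difference of -0.44 ± 0.061 (SE, n = 2 per group) gave a limma adjusted p of 0.00101. Ddx39b, which joins splicing to mRNA export, stood at 63.9 and 66.0 in the WT libraries and 54.6 and 51.6 in the KO libraries (-0.29, limma adjusted p 0.011). Ddx46, an early spliceosome helicase that works with the U2 particle, stood at 17.2 and 17.6 in WT against 15.2 and 14.5 in KO (-0.21, limma adjusted p 0.035). The groups did not overlap for any of these 3, nor for any other helicase gene that passed, so this is no support beyond the test. Ddx5, the most abundant helicase, stood at 129.5 and 132.3 in the WT libraries and 134.9 and 134.5 in the KO libraries, a difference of 0.04 with a 95% interval from -0.11 to 0.19. The later-acting spliceosome helicases Dhx38, Dhx8 and Dhx15, and Ddx23, did not pass, with differences of 0.05, -0.04, 0.16 and 0.0062.

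Of the 16 helicases of ribosome biogenesis, the largest group, 1 rose, 1 fell and 14 did not pass. Ddx24, a nucleolar protein, stood at 18.4 and 18.6 in WT against 22.2 and 20.9 in KO (0.21, limma adjusted p 0.036). Ddx55, needed for the large ribosomal subunit, stood at 3.14 and 2.91 in the WT libraries and 2.41 and 2.45 in the KO libraries (-0.23, limma adjusted p 0.049). Ddx21, the most abundant of this group, did not pass, at 52.8 and 55.0 in WT against 56.3 and 55.0 in KO, with the groups overlapping.

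Among the 10 genes of mRNA export, translation and decay, 1 rose, 1 fell and 8 did not pass. Dhx36, which unwinds G-quadruplexes in RNA and DNA, stood at 14.3 and 14.4 in the WT libraries and 16.3 and 18.4 in the KO libraries (0.25, limma adjusted p 0.028). Ddx19a, a homolog of the yeast export helicase of the nuclear pore, stood at 14.3 and 14.5 in WT against 12.2 and 12.6 in KO (-0.20, limma adjusted p 0.042). Ddx25, known for its role in sperm development, stood at 1.17 and 1.55 in the WT libraries and 1.83 and 1.77 in the KO libraries; its difference of 0.25 was the highest among genes that did not pass (limma adjusted p 0.077).

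Among genes of innate sensing and of mitochondrial RNA, 1 of 2 rose in each group. Ddx58, also known as RIG-I, which detects viral RNA, stood at 2.42 and 2.74 in WT against 3.89 and 3.50 in KO (0.39 ± 0.082 SE, limma adjusted p 0.00775). Dhx9, listed with it for nucleic acid sensing but also active in transcription, stood at 50.9 and 52.7 in the WT libraries and 47.1 and 48.1 in the KO libraries and did not pass (-0.12, limma adjusted p 0.18). Ddx28, which takes part in assembly of the mitochondrial ribosome, stood at 3.68 and 4.80 in WT against 6.303 and 5.58 in KO (0.41 ± 0.10 SE, limma adjusted p 0.018). Its difference was 0.26 and did not pass without WT replicate 1 (limma adjusted p 0.12), nor did it pass without KO replicate 1 (0.34, limma adjusted p 0.054). The annotated gene Dus2 overlaps Ddx28, and whether counting used the strand is not given, so reads of the pair may be mixed. Dhx30, which also acts on mitochondrial RNA, did not pass, at 10.9 and 11.1 in the WT libraries and 11.1 and 11.2 in the KO libraries (0.018, 95% interval from -0.12 to 0.16).

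Among 5 genes listed together under genome maintenance and small RNA pathways, a mixed group, 1 rose and 2 fell. Ddx43, a gene known for expression in germ cells and tumours, stood at 2.49 and 3.14 in WT against 1.71 and 1.93 in KO (-0.43 ± 0.096 SE, limma adjusted p 0.011). Ddx11, a DNA helicase of sister chromatid cohesion, stood at 4.37 and 4.41 in the WT libraries and 3.67 and 2.92 in the KO libraries (-0.33 ± 0.090 SE, limma adjusted p 0.024). Without KO replicate 2 its difference was -0.21 and did not pass (limma adjusted p 0.089). Ddx59, listed here but linked to ciliary signalling, stood at 4.17 and 4.05 in WT against 5.09 and 5.21 in KO (0.27 ± 0.069 SE, limma adjusted p 0.020). Ddx20, part of the SMN complex that loads proteins onto spliceosomal RNAs, did not pass, at 13.3 and 13.5 in WT and 14.3 in both KO inputs (0.087). The KO values of the 3 genes that passed did not overlap WT. This held for every helicase gene that passed, so it is no support beyond the test.

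**Figure D2:**
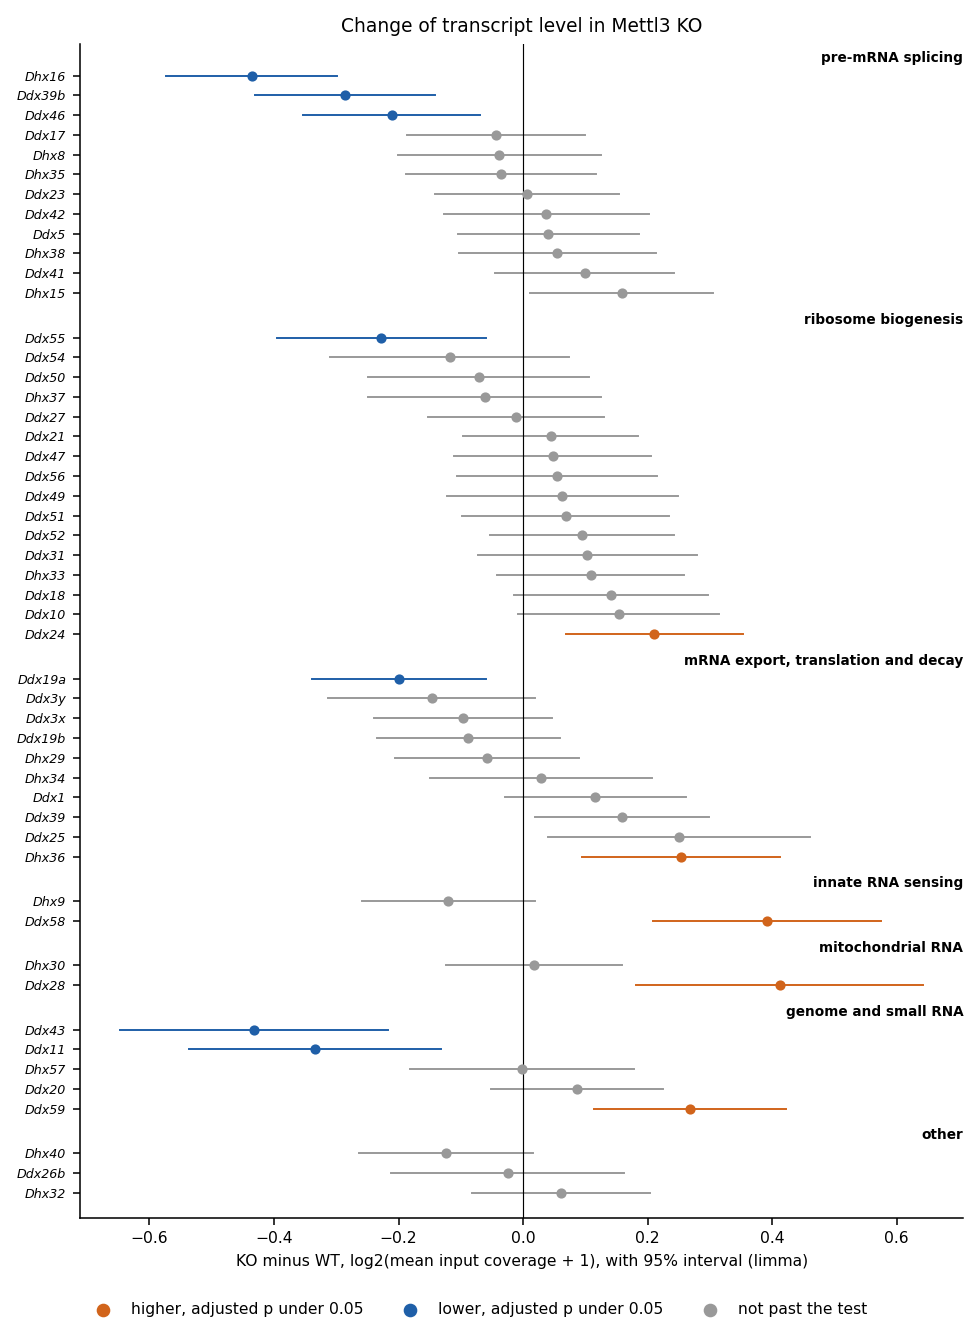
KO minus WT difference of log2(mean input coverage + 1) for the 50 helicase genes by role, with limma's 95% interval as a bar, and colours for genes that passed the test higher, lower or not at all. The differences span -0.44 (Dhx16) to 0.41 (Ddx28), and all 3 splicing genes that passed lie below 0.

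Of these 12 calls, 11 were lost with at least 1 library left out. Dhx16 was the only one of the 12 to pass with each of the 4 libraries left out in turn (adjusted p from 0.000693 to 0.00293), and Ddx19a and Ddx55 passed in none. Without WT replicate 1, 0 helicases passed higher and 4 lower, where 6.77% and 8.78% of all genes did. Without WT replicate 2 the helicase counts were 3 and 1 (9.88% and 7.33% of all genes), without KO replicate 1 they were 3 and 6 (13.0% and 15.1%), and without KO replicate 2 they were 4 and 3 (10.7% and 10.6%).

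In the first IP, which is 1 library, 38 of the 50 helicase genes (76.0%) carried at least 1 m6A region, against 54.3% of the 11306 genes. This difference was not tested. A region was a run of at least 2 neighbouring exon windows with a log2 winscore of at least 2, the winscore being the authors' enrichment of IP over input in a window relative to the gene's median. The genes held 52 regions, 24 with 1 and 14 with 2. Helicase genes were longer than others, with a median of 78.5 windows against 58. Among the 3262 genes between the helicases' own quartiles of length, 66.6% carried a region, and 20 of the 25 helicases there did (80.0%). All Dhx genes but Dhx16 carried one (14 of 15, 93.3%), against 24 of 35 Ddx genes (68.6%). Dhx genes tended to be longer than Ddx genes, and this contrast was not adjusted for length. Helicases with a region had a median of 86.5 windows, and those without one had 58.

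The genes without a region in the first IP were Ddx1, Ddx18, Ddx23, Ddx25, Ddx26b, Ddx27, Ddx39b, Ddx43, Ddx46, Ddx49, Ddx50 and Dhx16. These 12 hold 4 of the 7 that fell in KO (Dhx16, Ddx39b, Ddx46 and Ddx43) and none that rose, while all 5 that rose are among the 38 with a region. Over all genes tested, 13.9% of those without a region were higher and 14.3% lower in KO, against 11.0% and 13.3% of those with one. The absence of a region applies to the first IP alone. When each IP was mapped on its own, 48 helicases had a region in each WT IP and all 50 in each KO IP (80.3% and 88.2% of all genes in WT, 89.5% and 88.2% in KO). Ddx25 and Ddx43, with a mean WT input coverage of 1.36 and 2.82, had one in the KO IPs only. The winscore divides by the gene's median IP coverage. Windows at 0 made up 32.0% of all windows in the first IP and 50.6 to 74.3% in the WT and KO IPs. The part of these zeros in the counts was not tested, so the counts do not show a gain of m6A in KO.

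Most regions lay in the last exon, often near its start. Strand was known for 48 of the 52 regions, and 34 of these were in the last exon (70.8%, against 66.1% of all regions with a strand), 13 in an internal exon, 1 in the single exon of Ddx28 and none in a first exon of several (5.99% of all regions). In the last exon, 21 of 34 began in its opening 25% (61.8%, against 57.2% of all such regions) and 29 in its opening 50%, a median of 4 windows from its start. A smaller group of 9 lay within 5 windows of the 3′ end. The 13 internal regions lay in 12 exons, since Dhx34 has both of its regions in one, and 11 of these 12 were longer than the median exon of their gene, the exception being the 3-window second exon of Ddx41. Counted per region, the exon had a median of 13 windows, against 18 over all 2008 internal regions.

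The near copies Ddx3x and Ddx3y each had 1 region of 3 windows at 49.5% of the transcript, 1 and 2 windows into a last exon of 52 and 54 windows. Their winscores in the first IP were 2.52 and 2.90. Ddx5 and Ddx17, which both end in exon 13, had regions 3 windows into the last exon (Ddx5) and 0 and 11 windows into it (Ddx17). Ddx19a and Ddx19b differed: the single region of Ddx19a lay 6 windows into a last exon of 22 windows, and the 2 of Ddx19b lay 4 and 11 windows into one of 103. The annotated gene Aars overlaps Ddx19b.

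**Figure D3:**
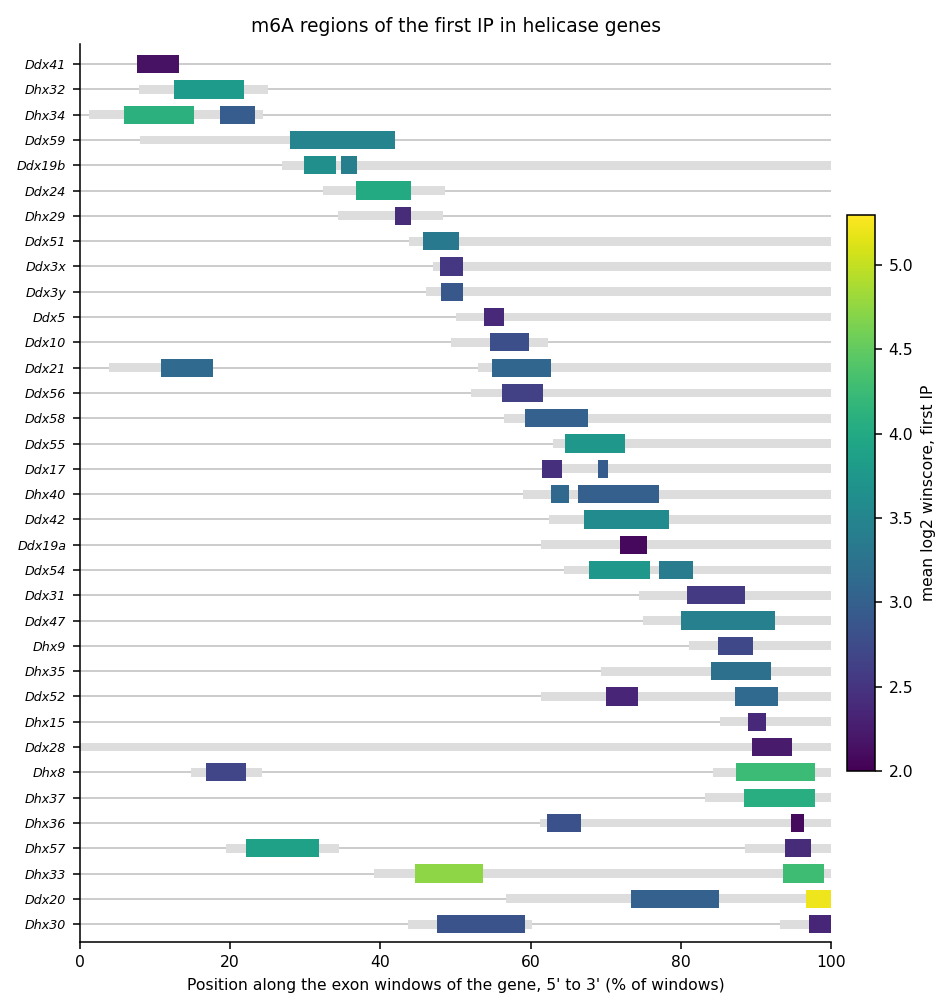
m6A regions of the first IP along the exon windows of the 35 helicase genes with a region and a known strand, from 5′ to 3′ in percent of the gene's windows. Coloured blocks are regions, shaded by mean log2 winscore, and wide grey bars mark the exon that holds them; 34 of the 48 blocks lie in a last exon, 21 of them beginning in its opening 25%, and that of Ddx20 at the very end is brightest at 5.21.

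The strongest region was at the 3′ end of Ddx20, in the last 2 windows of the gene, with a winscore of 5.21. Its mean IP coverage was 1168 and 960.2 in the WT libraries and 1531 and 1106 in the KO libraries, against 29.2, 27.9, 22.2 and 24.8 in the matching inputs. The KO and WT values of IP coverage in this region overlapped, and neither KO value lay below both WT values. By the ratio of IP to input described below, both KO values (7.05 and 6.37) lay above both WT values (6.24 and 6.17), as in 7.32% of all regions. That difference did not pass (limma adjusted p 0.42). Next came the regions of Dhx33, a nucleolar helicase, at 4.74, of the spliceosome helicase Dhx8 at 4.24, of Ddx11 at 4.20 and of Dhx34, a factor of nonsense-mediated decay, at 4.10. The remaining genes of the top 12 were Dhx37 (4.08), Ddx24 (4.004), Dhx57 (3.88), Dhx32 (3.80), Dhx38 (3.78), Ddx54 (3.76) and Ddx55 (3.75). The median over the 52 regions was 3.01, against 2.84 over all 10181 regions, and their median length was 5 windows against 4.

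**Figure D4:**
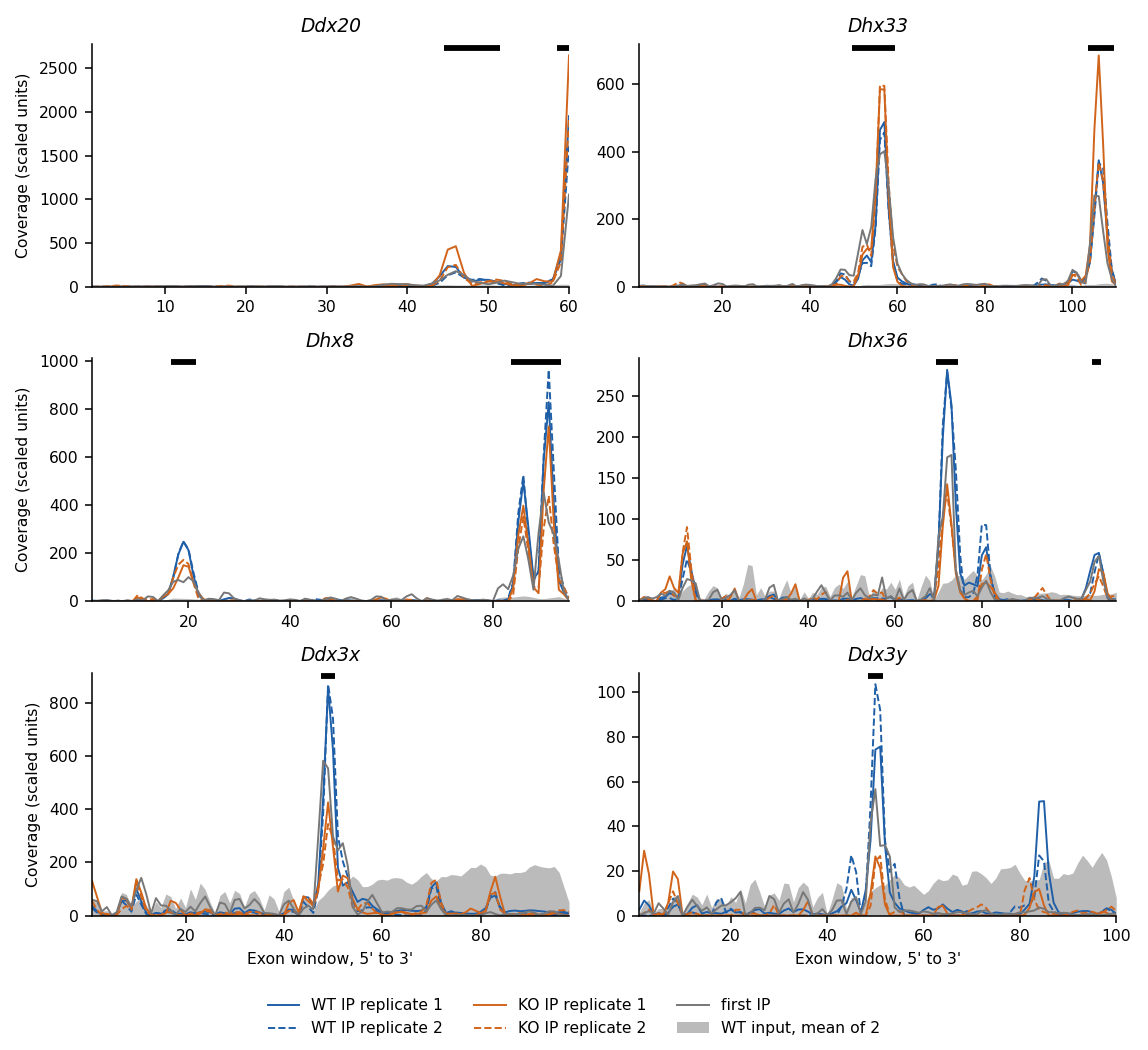
Coverage of the 5 IP libraries (lines) and the mean of the 2 WT inputs (grey area), in scaled units, along the exon windows of 6 helicase genes from 5′ to 3′; black bars mark the regions of the first IP. The peaks of Dhx36, Ddx3x and Ddx3y are lower in both KO IPs than in both WT IPs, those of Dhx33 and the 3′ end of Ddx20 are not, and the second, flanking peaks visible in Dhx36 and Ddx3y fall outside the regions.

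No region of a helicase gene passed the test of KO against WT winscore. Across all 10181 regions the limma test also called none (0.00%), with 842 at an unadjusted p under 0.05. Of the 52 helicase regions, 30 were lower in KO (57.7%, against 54.3% of all), with a median difference of -0.32 against -0.079 and a range from -1.88 to 1.36. Both KO values lay below both WT values in 17 regions (22.6% of all regions) and above both in 7 (17.5%). Unadjusted p was under 0.05 for 5 lower regions (5.08% of all) and 1 higher region (3.19%), and the lowest adjusted p was 0.555. Without KO replicate 1 the test called 2 helicase regions, those of Dhx35 and Dhx30, both lower, where it called 3.71% of all regions. Without KO replicate 2 it called 5 (13.0% of all regions), the one of Ddx51 higher and those of Ddx54, Ddx19b and Dhx38 (2) lower, while the median difference was 0.04 without WT replicate 2.

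Most helicase regions were still enriched in the KO IPs. The mean winscore stayed at 2 or more in both WT IPs for 50 of the 52 regions (96.2%, against 87.0% of all regions) and in both KO IPs for 44 (84.6%, against 74.9%). Of those 50, 43 also stayed there in both KO IPs (86.0%, against 82.0%). The winscore divides by the gene's median IP coverage, which was 0 for 0 and 8 of the 52 regions in the WT IPs and for 20 and 6 in KO, and 50.6 to 74.3% of all windows were at 0 in these 4 IPs. The part of these zeros in the differences was not tested.

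The lowest difference was at the 3′ end of Dhx30, the mitochondrial RNA helicase. Its winscore was 2.32 and 2.51 in WT against 0.94 and 0.14 in KO, the only helicase region under 1 in both KO IPs (-1.88 ± 0.69 SE, limma adjusted p 0.565). The second region of Dhx30, in the middle of the gene, stood at 3.40 and 3.32 in the WT libraries and 2.86 and 2.82 in the KO libraries, also without overlap. Dhx38, which acts at the second step of splicing, had a region at 4.49 and 4.25 in WT against 2.48 and 3.002 in KO (-1.63). The one of Dhx35, a spliceosome component, stood at 3.16 and 4.44 in the WT libraries and 2.68 and 1.70 in the KO libraries (-1.61). In both of these regions the KO values lay below WT. Region 2 of Dhx38 had overlapping groups, with 4.18 and 4.40 in WT against 1.405 and 4.27 in KO. Region 1 of Ddx19b had a difference of -1.74 and overlapping groups, with 4.03 and 6.12 in WT against 1.90 and 4.77 in KO. Region 2 of Ddx19b differed by 0.088. Of the 8 lowest, region 2 of Ddx54 differed by -1.52. The rest were the regions of Ddx47, a ribosome assembly factor (-1.37), Ddx19a (-1.33) and Ddx3y (-1.30). In these 4 regions both KO values lay below WT, as in 22.6% of all regions, but all of the 8 lowest were ranked by this same difference. Region 2 of Ddx54 had low input coverage (0.97 to 2.17 over the WT and KO libraries), and region 1 of Ddx54 differed by 0.018.

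The opposite end held Dhx33, with 4.64 and 5.19 in the WT libraries and 6.75 and 5.79 in the KO libraries (1.36 ± 0.60 SE, limma adjusted p 0.597). Dhx9 stood at 4.60 and 5.28 in WT against 6.43 and 6.12 in KO (1.33), Ddx51 at 3.11 and 3.23 in the WT libraries and 5.33 and 3.60 in the KO libraries (1.30), and Ddx39 at 1.89 and 1.92 in WT against 2.73 and 3.76 in KO (1.34). KO lay above WT in all 4, as in 17.5% of all regions, but these regions were ranked by this same difference. The Ddx39 region had less IP than input coverage in WT (10.7 and 4.18 against 13.5 and 12.5), with a winscore under 2 in both WT IPs. By the ratio of IP to input described below, the groups of Ddx51 overlapped. Ddx41 (1.07), Ddx58 (0.79), Ddx20 (0.77) and Ddx10 (0.72) followed by winscore, and the winscore groups of Ddx20 and Ddx10 overlapped.

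The plain ratio of IP to input, which does not use the gene's median, was lower in KO for more regions. It was taken as log2((IP + 1)/(input + 1)) with each library centred on its windows that lie outside regions. Of the 52 helicase regions 42 were lower in KO (80.8%, against 77.8% of all 9603 regions tested), with a median of -0.48 against -0.45. No region passed limma's adjusted threshold (0.00%), and 1601 of all regions had an unadjusted p under 0.05, among them 10 lower helicase regions (15.3% of all) and 1 higher, that of Dhx9 (1.38%). Both KO values lay below both WT values in 29 helicase regions (46.3% of all) and above in 6 (7.32%). The helicase share of lower regions, 80.8%, was close to the 77.8% of all regions. Whether the counts of 29 and 6 differ from the shares of all regions was not tested. Without KO replicate 1 the test called 6 helicase regions (8.02% of all regions) and without KO replicate 2 it called 12 (24.1%), so these counts also lay near the background.

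By this ratio the lowest limma adjusted p was 0.271. It was shared by the regions of Dhx9, Dhx35 and Ddx3y, both of Dhx36, region 1 of Dhx38 and region 2 of Ddx19b. Dhx35 had the lowest difference of all helicase regions (-2.05), and region 2 of Ddx19b differed by -0.89. Dhx38 had ratios of 4.57 and 4.69 in WT and of 2.34 and 2.97 in KO (-1.97 ± 0.39 SE), with IP coverage of 132.3 and 148.6 against 39.3 and 46.6 over inputs of 10.0 to 14.9. Both regions of Dhx36 had negative differences, and IP coverage at the one near the start of the last exon was 181.6 and 191.5 in the WT libraries and 76.0 and 80.8 in the KO libraries (-1.66). Its transcript was among those that rose. Ddx3y and Ddx3x were lower by ratio as well (-1.76 and -1.15), with a limma adjusted p of 0.278 for Ddx3x. Ratios in WT and KO were 3.48 and 3.50 against 1.86 and 1.60 for Ddx3y. For Ddx3x they were 3.83 and 3.85 against 2.80 and 2.58. For Ddx5 the ratio was 2.60 and 2.77 in WT against 1.09 and 1.15 in KO (-1.56, limma adjusted p 0.279). Among the regions at 0.271, Dhx9 alone was higher in KO, at 3.25 and 3.29 in the WT libraries and 4.60 and 4.46 in the KO libraries (1.26 ± 0.32 SE). Its region had more IP coverage in KO (119.4 and 114.1 against 211.1 and 154.2) and less input coverage (23.8 and 24.4 against 16.4 and 12.6).

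**Figure D5:**
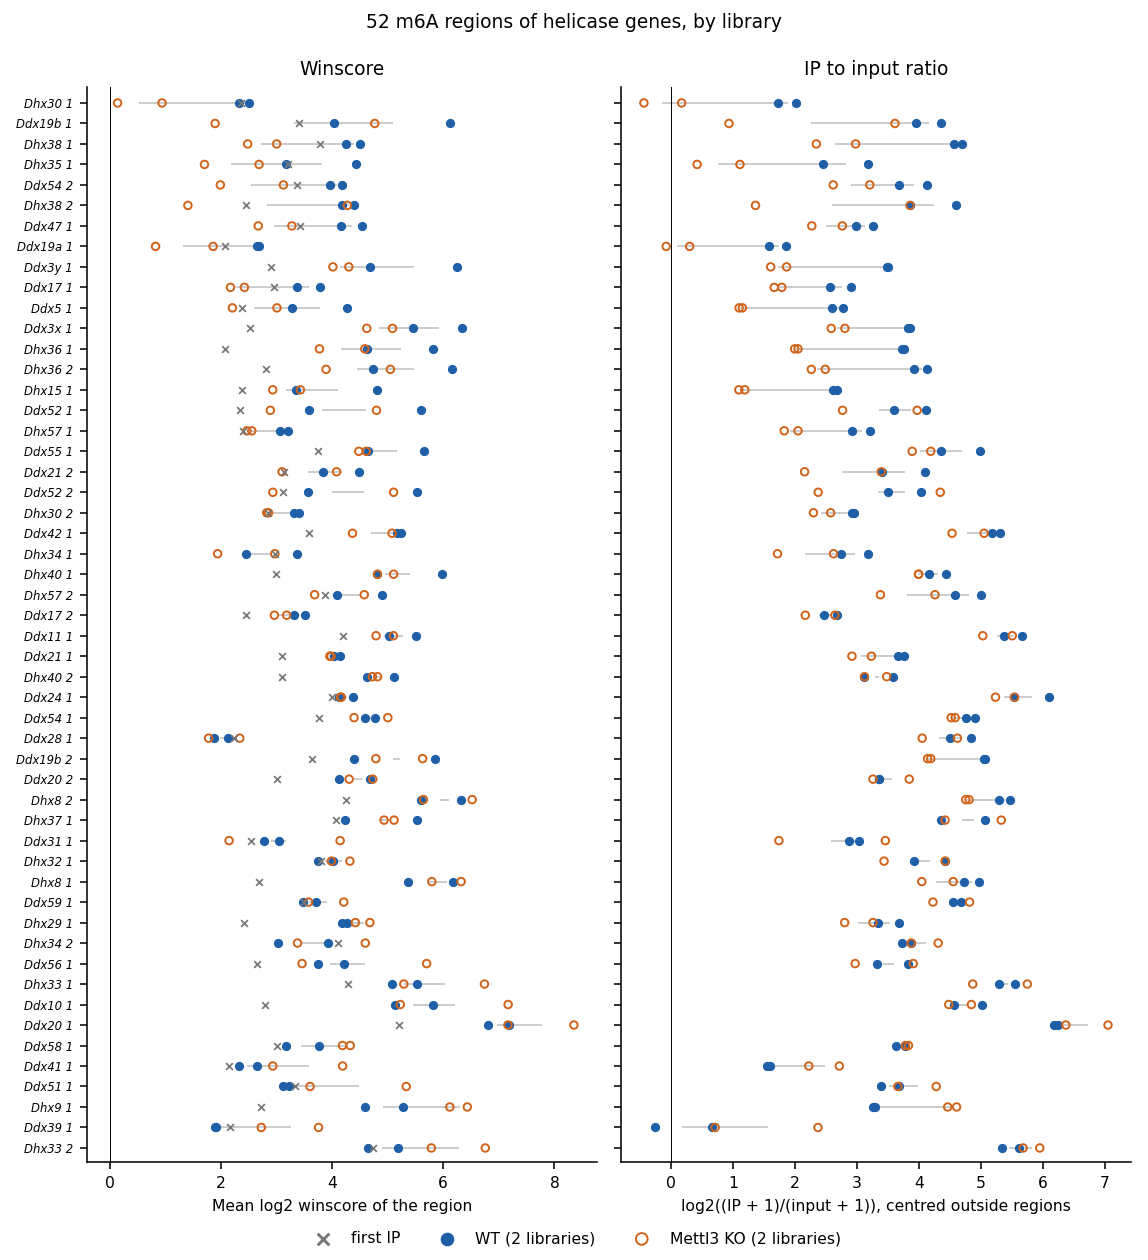
The 52 helicase regions, named by gene and region number and ordered by KO minus WT winscore, with 1 point per library: mean log2 winscore at left and the centred log2 IP to input ratio at right. Filled points are WT, open points KO and crosses the first IP; open points lie left of filled ones for 30 regions by mean winscore and for 42 by mean ratio.

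Over all regions tested, the ratio was lower in KO for 77.8%, with a median of -0.45. By role, it was lower for 10 of 11 regions of splicing helicases (median -1.01) and 9 of 11 of export, translation and decay helicases (median -1.15). The numbers of regions per role are small. It was lower for 13 of 16 regions of ribosome biogenesis helicases, with a median of -0.38. Both regions of the innate sensing genes Ddx58 and Dhx9 were higher, and all 3 of the mitochondrial genes were lower. These groups were not tested against each other. The winscore and the ratio differed in sign for some genes, such as Ddx10, at 0.72 by winscore and -0.13 by ratio.

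Other RNA helicases and the G-patch proteins, which bind and activate DEAH box helicases, were counted in the same way. Of 18 other RNA helicases measured, Supv3l1 of the mitochondrial degradosome was higher (0.21), and Snrnp200, the helicase that unwinds U4 from U6 in the spliceosome, and Mov10l1 of the piRNA pathway were lower (-0.27 and -0.52). Over all genes tested 13.0% were higher and 13.6% lower. The 23 regions of these other helicases were lower in KO by ratio in 13 cases, where 77.8% of all regions were, and by winscore in 11, where 54.3% were. Of 22 G-patch proteins 1, Gpank1, was lower (-0.26) and none was higher, and their 23 regions were lower in 18 cases by ratio and in 11 by winscore.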

How the data were processed

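RNA of 5 IP and input pairs was measured by m6A sequencing. Reads were aligned with TopHat 1.1.3 to mm9, per the submitters' processing notes. The library protocol keeps strand, per the labels' protocols. The sources used here do not state the gene model, the read filters or whether counting used strand. Track names of the first pair hold the word unique, without explanation, and those of the WT and KO pairs do not. Coverage per exon window (a signal in scaled units, factor not stated), its gene median and a log2 winscore were deposited for each pair, per the file headers; this log2 score, log2(((IP + 1)/(IP median + 1))/((input + 1)/(input median + 1))), was recomputed to within 5e-14 in all 1510223 windows. The authors also deposited a table of RPKM for the 5 inputs, by its column names, per the file headers.

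Across genes, the RPKM columns labelled KO correlated with the KO IP coverage (r 0.958 and 0.974) more than with the KO input coverage (0.697 and 0.712), while the WT columns followed their inputs (0.993 both). KO and WT transcripts were therefore compared on mean input coverage, and RPKM from the WT columns chose the genes and gave levels.

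Genes with coverage of at least 1 in at least 2 inputs were tested with limma 3.58.1 (R 4.3.3; lmFit, eBayes with trend, Benjamini-Hochberg, threshold 0.05) on log2(coverage + 1), pseudocount 1. Regions were runs of at least 2 windows with winscore at least 2 in the first IP; ratios needed a mean input coverage of at least 1 and were centred on windows with winscore under 1. The scripts were tested on simulated data. Coverage gives no read number, so the absolute depth is unknown. Exons are numbered along the genome, so 5′ to 3′ order used strand from the RefSeq promoter table of GRCm38.p6, which also gave neighbours; 48 gene names matched a symbol and 2 an older one, and 4 genes had no strand. Region sequences were not analysed here.

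The genes named are those that passed the test, the 12 with the highest first-IP winscore, the 8 lowest and 8 highest region differences (1 per gene) and Mettl3; others were named after their values were seen. The helicase genes and all lists were chosen with earlier results of these data known. Alternatives were the replicate block, each library left out, other pseudocounts, filters, thresholds and scaling, and the RPKM table.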

Additional observations from a re-analysis of the deposited data

How the results depend on the processing

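Deviations of same-numbered libraries correlated at -0.027 for transcripts, 0.025 for winscores and 0.011 for ratios. These values show no shared shift by replicate number, but cannot tell whether the libraries were prepared as pairs. With the replicate block 4 helicase transcripts were higher and 4 lower, with Ddx24 (adjusted p 0.051), Ddx19a (0.062), Ddx46 (0.052) and Ddx55 (0.070) lost, and no helicase region passed by either measure. Over all genes the block called 11.9% higher and 12.5% lower. Over all regions it called 0.638% by winscore and 0.00% by ratio. The 5 higher and 7 lower helicase transcripts became 0 and 1 with no filter on low values (1.71% and 1.79% of all genes) and 19 and 16 with the RPKM table (40.9% and 24.1%). With a minimum coverage of 5, 4 were higher and 4 lower (15.9% and 14.7% of all genes). Only 39 helicases were then tested, Ddx58, Ddx11, Ddx43 and Ddx55 dropped out, and the other 8 still passed. Ddx28 (3.68 and 4.80 in WT) and Ddx59 (4.17 and 4.05) met this minimum through the KO inputs alone. Their calls as higher in KO are therefore no separate support. Leaving out 1 library gave 0 to 4 higher and 1 to 6 lower, where 6.77 to 13.0% of all genes were higher and 7.33 to 15.1% lower. The RPKM table, whose KO columns are in doubt, turned Ddx11 to 1.497, Ddx55 to 1.04 and Dhx36 to -0.42. The cause of the other changes was not tested.

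The median winscore difference of -0.32 became -0.065 for the highest window of each region, -0.048 with a region threshold of 1, and between -0.46 and 0.039 with 1 library left out. The helicase regions past the test, 0 in the complete set, numbered 0 to 5 for winscore (0.00 to 13.0% of all regions) and 0 to 12 for the ratio (0.00 to 24.1%) with 1 library left out, and the ratio's median lay between -0.62 and -0.41. The share of helicases with a region was 92% at a winscore threshold of 1 (79.3% of all genes) and 48% at 3 (35.9%). The Ddx10 region ranged from -0.25 (without KO replicate 1) to 1.69 by winscore and from -0.36 to 0.10 by ratio with 1 library left out, above 0 without WT replicate 2 (0.10) or KO replicate 2 (0.052). Of the single-gene checks, 70 of transcript levels kept direction and call, 43 lost the call and 3 reversed; for winscores 114 kept both, 6 gained a call and 1 reversed, and for ratios 113, 10 and 2. Where a library is left out, the remaining one of its group is assumed to vary like the other group.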

Other observations

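The first input, a single library with no genotype label, was higher than both WT inputs for 41 of the 50 genes and lower for 9, against 74.3% of all genes tested that were higher. Ddx39b stood at 135.2 there against 63.9 and 66.0 in WT, Ddx54 at 29.3 against 10.2 and 9.53, and Dhx34 at 7.400 against 1.89 and 1.90. Ddx5 went the other way, at 57.5 against 129.5 and 132.3, as did Ddx18, at 15.5 against 34.5 and 36.0. With 1 library there is no replicate check and no test of these differences.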
